A study of Mus musculus with 13 samples.

Results

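The vascular endothelial growth factor (VEGF) family was examined as 10 genes chosen by name: the ligands Vegfa, Vegfb, Vegfc, Vegfd and Pgf, the receptor tyrosine kinases Flt1, Kdr and Flt4, and the neuropilin co-receptors Nrp1 and Nrp2. The rule uses names and no measured value, but the family was picked with earlier results of these data known. All 10 were found among the 36109 genes with listed transcripts. All 10 also passed the filter on low counts in each of the 4 comparisons made here.

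VEGF ligands are secreted dimers that bind receptor tyrosine kinases on endothelial cells. Vegfa acts through Kdr, the main kinase for endothelial growth and permeability, and binds Flt1 more tightly, so that Flt1 and its soluble form can hold it back from Kdr. Vegfb and placental growth factor (Pgf) bind Flt1 alone. Vegfc and Vegfd act on Flt4, the receptor of lymphatic vessels, and processed Vegfc also acts on Kdr. Neuropilins bind some of these ligands together with the kinases and also serve as receptors of class 3 semaphorins. In the adult heart cardiomyocytes are a main source of Vegfa and Vegfb, and capillary endothelium carries most of the Kdr and Flt1.

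RNA came from mice with a whole-body deletion of Hmox2 (Hmox2-/-, KO), which encodes the constitutive heme oxygenase, and from their wild-type littermates (Hmox2+/+, WT), all kept in room air. Aortic endothelial cells (ECs) of 3 Hmox2+/+ and 3 Hmox2-/- mice were lysed by flushing TRI Reagent through the aortic lumen, and hearts of 4 Hmox2+/+ and 3 Hmox2-/- mice were frozen whole. The sequenced mice were young, and their sex is not stated. The series describes ECs and hearts as matched, but no label says which EC library and which heart share a mouse. The comparisons across tissues therefore treated all libraries as independent. Hmox2 was 63.9 to 76.2 CPM (counts scaled to library size) in ECs of WT mice and 12.6 to 14.7 CPM in ECs of KO mice, and 37.3 to 42.5 against 7.53 to 8.9 CPM in hearts. In TPM (transcript abundance scaled per length and library) the KO level was less far below, at 57.7 ± 5.6 against 25 ± 6.6 in ECs (n = 3 each) and 29.4 ± 3.85 (n = 4) against 17.2 ± 1.26 (n = 3) in hearts.

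Library depth was 26067147 to 31619776 estimated counts in 12 libraries and 7268626 in heart WT 1. Mitochondrially encoded transcripts held 37.3% to 43.9% of the counts in hearts of WT mice and 22.3% to 27.0% in hearts of KO mice. The EC label was checked against defining markers. Pecam1, an endothelial adhesion molecule, was 364 to 1007 TPM in the 6 EC libraries and 24.2 to 48 TPM in hearts. The same EC libraries held Ucp1, the uncoupling protein of brown fat, at 1022 to 1909 TPM and Adipoq, the adipocyte hormone adiponectin, at 562 to 1042 TPM, while in hearts Adipoq stayed under 1 TPM and Ucp1 at or near 0. The summed level of 9 cardiomyocyte markers was 101 to 676 TPM in ECs of WT mice and 8.07 to 11.3 TPM in ECs of KO mice, where Myh6, Myl2, Myl3 and Ryr2 were under 1 TPM in every library. The 3 mesothelial markers summed to 7 to 52.1 TPM in ECs of WT mice and 2.74 to 5.52 TPM in ECs of KO mice. The sum of 5 smooth muscle markers was 1941 to 3122 TPM in ECs of WT mice and 589, 629 and 2235 TPM in ECs of KO mice. The EC libraries therefore hold RNA of several cell types in proportions that differ between the genotypes, and in such bulk samples fewer cells of a type and less RNA per cell cannot be told apart. The Y-linked gene Ddx3y was 14.6 to 22.5 TPM in 4 EC libraries and 0.883 and 0.39 TPM in EC KO 2 and EC KO 3. It was 17.7 to 18.8 TPM in hearts of WT mice and 11.5 to 18.1 TPM in hearts of KO mice. In CPM its heart ranges lay apart, at 61.6 to 86.5 CPM in WT and 37 to 50.9 CPM in KO mice, and the reason was not tested. In this gene EC KO 2 and EC KO 3 thus match no sequenced KO heart. Both libraries low in Ddx3y were KO, so genotype and sex cannot be fully told apart in the EC comparison.

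Vegfa, Vegfb and Flt1 each have coding transcripts that encode different ends of the protein, and these coding sequences are shown first because the shares of the forms are given further on (GENCODE M39 transcripts, GRCm39, minus strand, 5′ to 3′). The end of the Vegfa coding region (chr17:46329787-46335020) is printed from the last exon that all forms share in front of the optional ones, with the optional exons in capitals. Vegfa-201 has neither of them, Vegfa-202 has the 132-base exon (chr17:46331917-46332048), and Vegfa-207 has the 72-base exon (chr17:46333203-46333274) in front of it. The basic residues that these exons encode hold the longer forms on heparan sulfate at the cell surface and in the matrix, and the short form diffuses freely.
Vegfa-201: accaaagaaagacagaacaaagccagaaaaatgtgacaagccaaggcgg
Vegfa-202: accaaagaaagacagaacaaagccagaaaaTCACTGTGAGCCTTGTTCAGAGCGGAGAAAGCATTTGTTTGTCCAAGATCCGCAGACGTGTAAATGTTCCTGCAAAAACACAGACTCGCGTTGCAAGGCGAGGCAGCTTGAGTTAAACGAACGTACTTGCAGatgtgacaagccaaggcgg
Vegfa-207: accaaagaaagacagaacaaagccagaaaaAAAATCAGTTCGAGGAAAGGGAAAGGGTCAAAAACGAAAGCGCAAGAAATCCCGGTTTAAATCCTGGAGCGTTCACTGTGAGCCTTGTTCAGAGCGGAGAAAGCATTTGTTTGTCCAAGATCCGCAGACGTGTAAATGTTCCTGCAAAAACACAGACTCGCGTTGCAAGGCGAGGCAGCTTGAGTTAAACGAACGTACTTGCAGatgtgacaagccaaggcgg

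Vegfb has a pair of forms that differ by 101 coding bases (in capitals; printed from a shared exon, at chr19:6960217-6963208 for Vegfb-202 and chr19:6962754-6963208 for Vegfb-201). The insert shifts the reading frame of the bases after it, so the same letters encode a soluble end in Vegfb-201 and a heparin-binding end in Vegfb-202.
Vegfb-201: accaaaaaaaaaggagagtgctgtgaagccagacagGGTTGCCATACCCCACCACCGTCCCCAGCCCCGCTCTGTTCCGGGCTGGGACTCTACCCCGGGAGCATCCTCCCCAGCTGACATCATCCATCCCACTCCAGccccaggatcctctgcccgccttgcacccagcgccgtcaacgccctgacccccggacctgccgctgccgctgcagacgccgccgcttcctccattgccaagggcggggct
Vegfb-202: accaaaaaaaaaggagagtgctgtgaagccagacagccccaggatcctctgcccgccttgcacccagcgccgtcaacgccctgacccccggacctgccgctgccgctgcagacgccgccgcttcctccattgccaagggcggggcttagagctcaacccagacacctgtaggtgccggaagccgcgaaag

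Flt1 is read either as the full receptor (3999 coding bases) or as a shortened transcript (2064 coding bases), which ends before the membrane-spanning part and encodes a soluble decoy. Both are printed from the same shared bases (lower case), the soluble form at chr5:147575943-147576064 and the full receptor at chr5:147571242-147576064. The capitals are the last 92 coding bases of the soluble form, read from an intron that the full receptor removes, and the next 92 coding bases of the full receptor.
Flt1 soluble form: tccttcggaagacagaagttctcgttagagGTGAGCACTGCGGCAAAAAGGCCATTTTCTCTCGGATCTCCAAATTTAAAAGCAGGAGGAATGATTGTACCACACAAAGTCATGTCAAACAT
Flt1 full receptor: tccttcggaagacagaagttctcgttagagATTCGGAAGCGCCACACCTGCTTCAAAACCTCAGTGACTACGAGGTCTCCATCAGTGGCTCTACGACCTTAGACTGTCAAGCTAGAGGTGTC

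Levels were compared between genes in TPM, which divides by transcript length. In ECs of WT mice Vegfb had the highest level (118 ± 20.3 TPM, mean ± SD, n = 3), followed by Vegfa (80.8 ± 17.8 TPM) and Nrp1 (63.2 ± 11.9 TPM), and the ranges of neighbours in that order overlapped. Vegfd (13.4 ± 4.81 TPM) and Nrp2 (8.7 ± 1.62 TPM) formed a middle pair whose ranges also overlapped. Vegfc, Flt1, Pgf, Kdr and Flt4 lay between 3.33 and 4.61 TPM on average, with each range overlapping the next. The 3 receptor kinases were thus among the 5 lowest members in libraries labelled as endothelial. Kdr was 0.00459 to 0.00833 of the Pecam1 level there, against 0.541 to 0.685 of it in hearts of WT mice.

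In hearts of WT mice the order was Vegfb (150 ± 21 TPM, n = 4), Vegfa (78.8 ± 13 TPM), Nrp1 (27.7 ± 3.76 TPM), Kdr (15.8 ± 2.93 TPM), Flt1 (10.4 ± 1.19 TPM) and Nrp2 (5.52 ± 0.632 TPM), and none of the neighbouring ranges overlapped down to Nrp2 and Flt4. Flt4, Vegfc and Pgf were 1.82 to 2.2 TPM on average and did not separate from one another. Vegfd was the lowest, at 0.618 ± 0.135 TPM. In both tissues Vegfb and Vegfa were the most abundant ligands, and Vegfd was the member that differed most in rank between them.

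**Figure D1:**
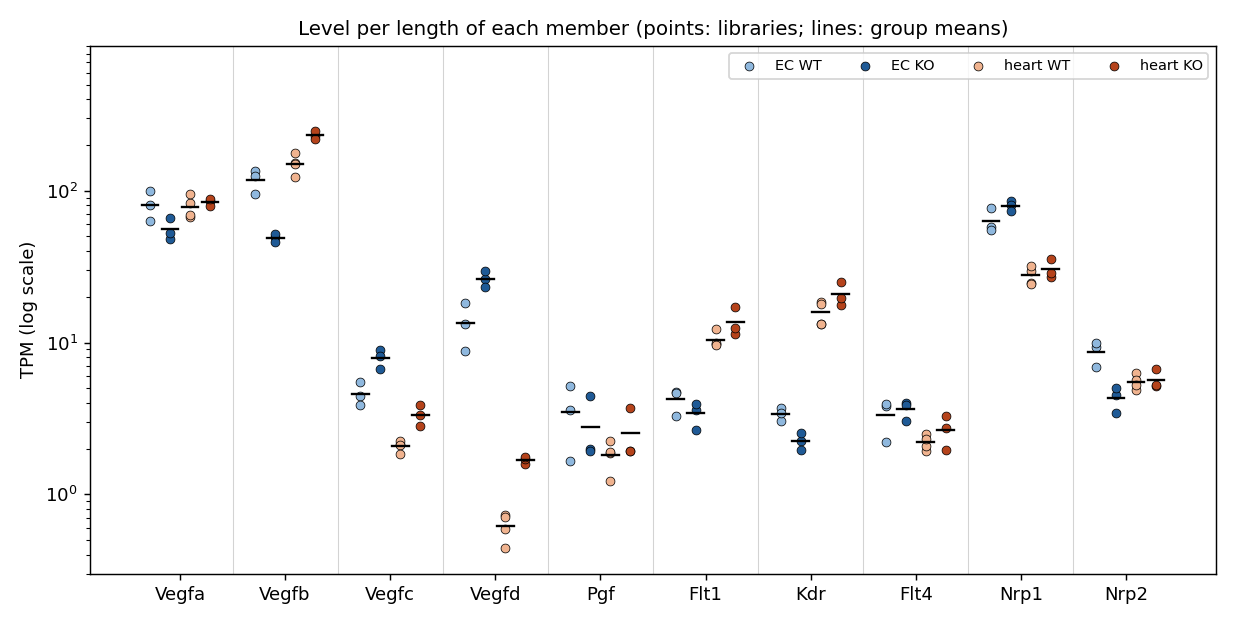
TPM (log axis) of the 10 members in ECs and heart tissue, with a point for each library (3, 3, 4 and 3 per group) and a line at each group mean. Vegfa, Vegfb and Nrp1 are the highest, Kdr and Flt1 are higher in heart than in EC libraries, and Vegfd is 8.74 to 29.6 TPM in ECs against 0.44 to 1.75 TPM in hearts.

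The tissues were compared within WT mice. Kdr was higher in heart by 3.14 on the log2 scale (SE 0.13, edgeR quasi-likelihood test with Benjamini-Hochberg adjustment, adjusted p = 2.97e-08) and Flt1 by 2.22 (SE 0.10, adjusted p = 5.24e-08). Vegfb was higher in heart by 1.22 (SE 0.19, adjusted p = 0.000249), Vegfa by 0.82 (SE 0.24, adjusted p = 0.013) and Flt4 by 0.38 (SE 0.14, adjusted p = 0.0403). Vegfd was the one member higher in ECs, at -3.55 on the log2 scale (SE 0.31, adjusted p = 4.36e-06). Vegfc (-0.12), Pgf (0.10), Nrp1 (-0.28) and Nrp2 (0.24) did not pass. These 6 of 10 members stand beside 67.9% of all 14777 genes tested (32.5% higher and 35.4% lower in heart), so a tissue difference was common. RNA isolation differed between ECs and heart tissue and cannot be told apart from tissue.

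The main question was whether loss of Hmox2 went with another level of each member. In ECs, 4 of 10 members passed an adjusted p of 0.05, where 18.1% of 15301 genes passed (10% higher and 8.06% lower). Vegfb, Kdr and Nrp2 fell and Vegfc rose in KO mice. In heart tissue, 2 of 10 passed, where 33.4% of 13816 genes passed (17.2% higher and 16.2% lower), and both (Vegfb and Vegfd) rose. The WT and KO libraries had separate CPM ranges in 7 of 10 members in ECs, against 40.7% of genes, and in 2 of 10 members in heart tissue, against 40.4% of genes. These counts depend on the unit. In TPM the EC ranges of Flt1 and Nrp1 overlapped and the heart ranges of Vegfc lay apart, and the share over all genes was counted in CPM only. A log2 fold change of at least 1 was reached as well by 2 members in ECs (Vegfb and Nrp2, against 9.28% of genes), by 1 in hearts (Vegfd, against 6.71%), by 1 in the interaction (Vegfb, against 15.4%) and by 4 between tissues (against 39.6%). At an unadjusted p of 0.05 the counts were 6 in ECs, 3 in hearts, 6 in the interaction and 7 between tissues, against 35.3%, 44.8%, 40.9% and 70.8% of genes. The median log2 fold change over the members was -0.23 in ECs and 0.09 in heart tissue, where all genes tested had -0.02 and -0.01.

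**Figure D2:**
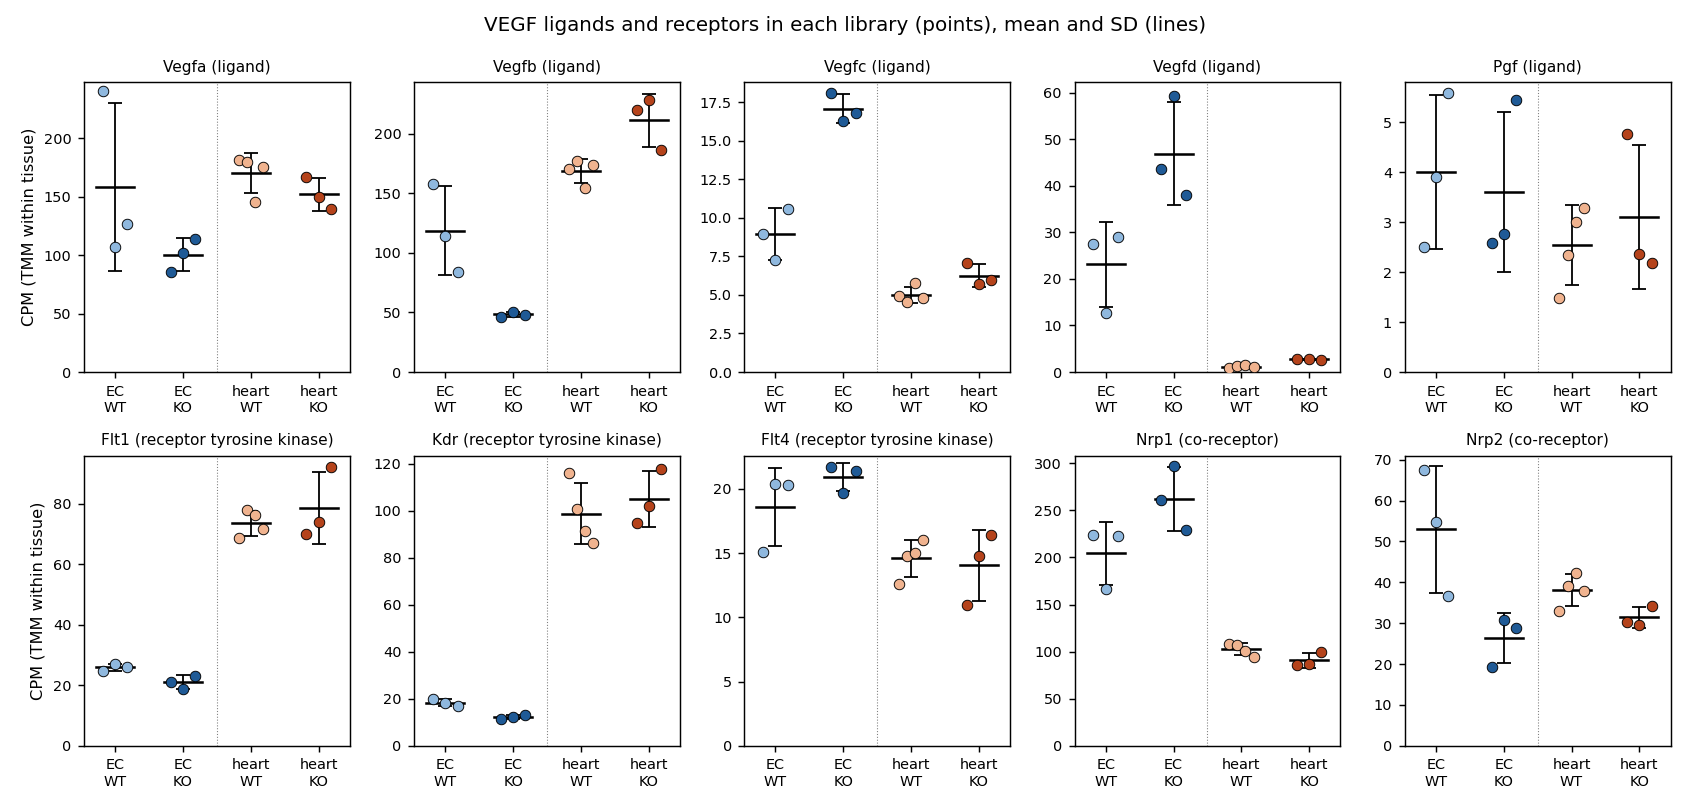
CPM (normalized by TMM within each tissue) of each member in every library, with group means and SDs as lines; levels are to be compared within a tissue. In ECs Vegfb, Kdr and Nrp2 lie lower and Vegfc and Vegfd higher in every KO library, and in hearts Vegfb and Vegfd lie higher in every KO library.

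Vegfb is the ligand linked to fatty acid uptake and coronary growth. In ECs it was 158, 114 and 83.7 CPM in WT mice and 46.4, 50.7 and 48.1 CPM in KO mice. The groups did not overlap, the KO libraries lay close together, and KO mice had 0.408 of the WT level (log2 fold change -1.29, SE 0.22, adjusted p = 0.0106). Cardiac Vegfb was 170, 177, 154 and 174 CPM in WT mice and 220, 228 and 186 CPM in KO mice. Here every KO library was above every WT library, and the rise was 0.33 on the log2 scale (SE 0.10, adjusted p = 0.0308). The tissue by genotype interaction, heart effect minus EC effect, was 1.66 (SE 0.24, adjusted p = 0.000528), so the opposite directions differed beyond the spread. It passed in all 21 alternatives, 1.04 to 1.86. Within the tissues the calls were less stable. The EC call was lost without EC KO 3 (-1.27, adjusted p = 0.0565) and the heart call with an offset for length and GC content (0.02, adjusted p = 0.866). The heart call was also lost without heart WT 1, heart WT 3, heart WT 4 or heart KO 2 (adjusted p = 0.0671, 0.0928, 0.0605 and 0.135). The Vegfb-202 form held 52.2% to 58.0% and Vegfb-201 42.0% to 47.0% of the Vegfb TPM in all 13 libraries, so both forms moved together in both tissues.

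Vegfa, the principal angiogenic ligand, was 240, 107 and 127 CPM in ECs of WT mice and 85.5, 102 and 114 CPM in ECs of KO mice. EC WT 1 stood far above the other WT libraries, and the groups overlapped. The log2 fold change was -0.65 (95% confidence interval -1.34 to 0.03, adjusted p = 0.16), and without EC WT 1 it was -0.22. It passed only with all libraries in 1 fit (-0.69, adjusted p = 0.04). In hearts it was 181, 180, 145 and 175 CPM in WT mice and 167, 150 and 139 CPM in KO mice. These ranges also overlapped, with a log2 fold change of -0.17 (95% confidence interval -0.41 to 0.08, adjusted p = 0.266).

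Vegfc, the ligand required for lymphatic growth, was 8.97, 7.25 and 10.6 CPM in ECs of WT mice and 18.1, 16.3 and 16.8 CPM in ECs of KO mice. All KO libraries were higher, and the rise was 1.91-fold (log2 fold change 0.94, SE 0.17, adjusted p = 0.0125). It did not pass without EC KO 3 (0.96, adjusted p = 0.0555). In hearts Vegfc was 4.54 to 5.75 CPM in WT mice and 5.69 to 7.08 CPM in KO mice. These ranges overlapped and the log2 fold change was 0.32 (SE 0.15, adjusted p = 0.127). The interaction (-0.57, adjusted p = 0.064) did not pass.

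Vegfd, the second ligand of Flt4, was 0.892, 1.21, 1.45 and 1.06 CPM in hearts of WT mice and 2.76, 2.84 and 2.69 CPM in hearts of KO mice. The KO values were nearly identical and all above WT. The rise was 2.32-fold (log2 fold change 1.21, SE 0.22, adjusted p = 0.00262), and it passed in all 15 alternatives (1.06 to 1.33). The level was low, at 6 to 38 estimated counts in WT and 90 to 94 in KO libraries. In ECs Vegfd was 27.6, 12.6 and 29.1 CPM in WT mice and 43.5, 59.3 and 38 CPM in KO mice. The groups did not overlap and the difference was of like size (1.02, SE 0.32), but it did not pass (adjusted p = 0.0626). It did in 4 of 15 alternatives, among them DESeq2 (adjusted p = 0.0111). The interaction was 0.22 (95% confidence interval -0.61 to 1.06).

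Pgf, a Flt1 ligand that is scarce in healthy tissue, was 2.51, 3.91 and 5.59 CPM in ECs of WT mice and 2.59, 2.76 and 5.44 CPM in ECs of KO mice. It was 1.49 to 3.29 CPM in hearts of WT mice and 2.18 to 4.76 CPM in hearts of KO mice. The genotypes overlapped in both tissues. The 95% confidence intervals, -1.10 to 0.78 in ECs and -0.46 to 0.90 in hearts, were the widest of the members, at 10 to 181 estimated counts per library.

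Kdr, the main signalling receptor of Vegfa, was 19.9, 18.3 and 16.8 CPM in ECs of WT mice and 11.5, 12.1 and 13.2 CPM in ECs of KO mice. The groups were tight and apart. The fall was by 0.58 on the log2 scale (SE 0.13, adjusted p = 0.0233), and leaving out any library but EC WT 3 lost the call (adjusted p = 0.0527 to 0.085) at nearly the same size (-0.52 to -0.62). In hearts Kdr was 116, 101, 91.4 and 86.5 CPM in WT mice and 94.7, 102 and 118 CPM in KO mice. Those ranges overlapped almost wholly, with a log2 fold change of 0.09 (95% confidence interval -0.17 to 0.35, adjusted p = 0.591). The interaction was 0.71 (SE 0.18, adjusted p = 0.0101), and it passed in 20 of 21 alternatives, the exception being the EC libraries with Ddx3y counts alone (adjusted p = 0.0592).

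The EC difference in Kdr went against that of most general endothelial markers in the same libraries. Of 13 such markers, 5 rose and none fell in ECs of KO mice (38.5%, all genes 18.1%), with 1 below 0. Their summed level was 1035 to 1990 TPM in WT and 2163 to 2375 TPM in KO mice. Pecam1 alone was 364 to 750 and 930 to 1007 TPM, while Cdh5, the junctional cadherin of endothelium, overlapped (51.9 to 96.7 and 81.1 to 85.6 TPM). Kdr per Pecam1 was 0.00647 ± 0.00187 in ECs of WT mice and 0.00231 ± 0.000212 in ECs of KO mice (n = 3 each). Per Cdh5 it was 0.0493 ± 0.0121 and 0.027 ± 0.00309. In hearts Kdr per Pecam1 was 0.588 ± 0.0673 in WT mice (n = 4) and 0.465 ± 0.0972 in KO mice (n = 3), and Kdr per Cdh5 was 0.532 ± 0.0706 and 0.58 ± 0.0668. The cardiac ranges overlapped for both ratios. The 5 capillary endothelial markers summed to 6664 to 10506 TPM in ECs of WT mice and 4248 to 6020 TPM in ECs of KO mice, and none of them passed. The 5 adipocyte markers summed to 5268 to 7057 TPM in ECs of WT mice and 6173 to 7795 TPM in ECs of KO mice. How much of the capillary sum came from adipocytes was not tested, nor was the part of either list in the result.

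Flt1, the high-affinity receptor for Vegfa, Vegfb and Pgf, was 24.8, 27.1 and 26 CPM in ECs of WT mice and 21.1, 18.6 and 23.2 CPM in ECs of KO mice. Although the groups did not overlap, the log2 fold change of -0.31 (SE 0.12) did not pass (adjusted p = 0.11). Cardiac Flt1 was 68.7, 77.7, 76.1 and 71.6 CPM in WT mice and 69.8, 73.9 and 92 CPM in KO mice. There the ranges overlapped, with a log2 fold change of 0.09 (adjusted p = 0.538), and heart KO 3 held the highest value of Flt1, Kdr and Flt4 alike.

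Flt4, the receptor of Vegfc and Vegfd, was 15.1, 20.4 and 20.3 CPM in ECs of WT mice and 21.7, 19.7 and 21.4 CPM in ECs of KO mice. It was 12.6 to 16 CPM in hearts of WT mice and 11 to 16.4 CPM in hearts of KO mice. The genotypes overlapped in both tissues, with log2 fold changes of 0.17 (95% confidence interval -0.17 to 0.50) and -0.07 (-0.38 to 0.25). Its level thus did not differ detectably where the level of Vegfc (ECs) or Vegfd (hearts) did.

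Nrp1, the co-receptor that joins Vegfa to Kdr, was 224, 166 and 223 CPM in ECs of WT mice and 261, 297 and 229 CPM in ECs of KO mice. The groups were separated by a narrow gap, and the log2 fold change of 0.36 (SE 0.17) did not pass (adjusted p = 0.171). Cardiac Nrp1 was 94.4 to 108 CPM in WT mice and 85.7 to 99.6 CPM in KO mice, with overlap (log2 fold change -0.18, adjusted p = 0.177). Nrp2, the partner of Flt4 and receptor of Sema3f, was 67.5, 54.7 and 36.7 CPM in ECs of WT mice and 19.4, 30.7 and 28.9 CPM in ECs of KO mice. Every KO library was lower, at 0.498 of the WT level (log2 fold change -1.01, SE 0.25, adjusted p = 0.035). It was lost without any single library but EC WT 3 (adjusted p = 0.0662 to 0.0987). In hearts Nrp2 was 32.9, 39.2, 42.3 and 37.9 CPM in WT mice and 30.4, 29.5 and 34.3 CPM in KO mice, which overlapped (-0.29, adjusted p = 0.0632). The interaction for Nrp2 was 0.76, with an adjusted p that rounds to 0.05 and lay just above the threshold.

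**Figure D3:**
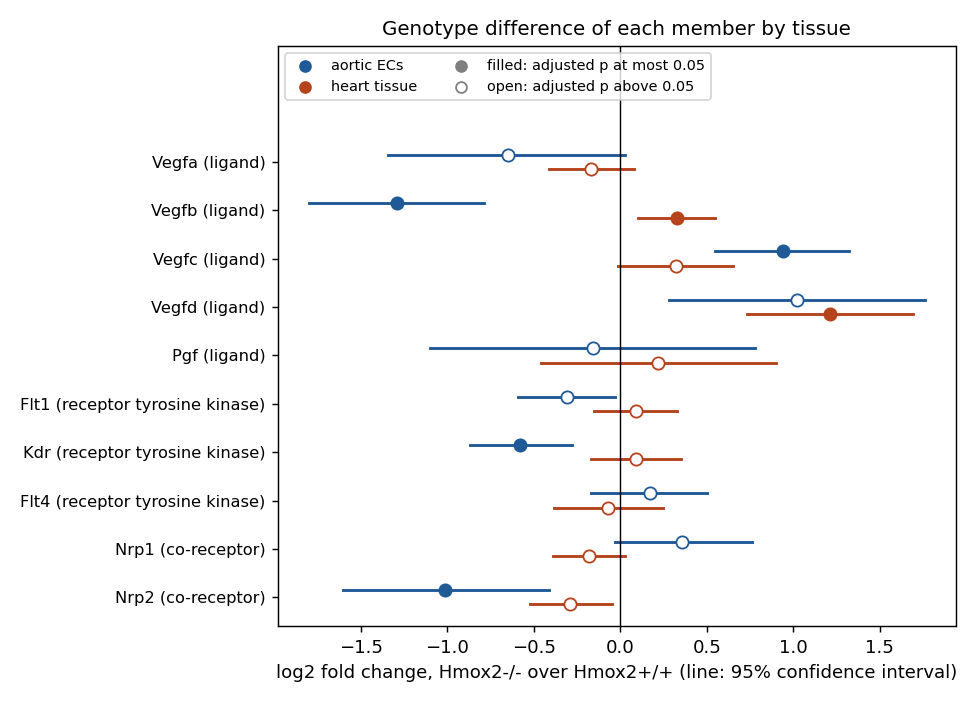
Log2 fold change (Hmox2-/- over Hmox2+/+) of each member in ECs and heart tissue, with its 95% confidence interval; filled points passed an adjusted p of 0.05. Vegfb sits on opposite sides of 0 in the 2 tissues (-1.29 and 0.33), while Vegfd is near 1 in both.

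The interaction passed for 2 of 10 members, Vegfb and Kdr, both positive, against 28.8% of 15938 genes (16.2% positive and 12.7% negative). For Flt1 it was 0.45 (adjusted p = 0.0622), for Nrp1 -0.50 (0.0672), for Vegfa 0.53 (0.228), for Pgf 0.44 (0.575) and for Flt4 -0.19 (0.55).

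The EC calls rest on few libraries. Without EC KO 3, and also with EC KO 2 and EC KO 3 both left out (the libraries low in Ddx3y), none of the 10 members passed. With both left out the log2 fold changes were -1.34 for Vegfb, 1.03 for Vegfc, -0.66 for Kdr and -1.44 for Nrp2, from 1 KO library assumed to vary like the WT libraries. In hearts, an offset for transcript length and GC content, added after the data were seen, changed which members passed. Flt1 (0.47, adjusted p = 0.000982) and Kdr (0.42, adjusted p = 0.0082) then rose, Vegfa (-0.28, adjusted p = 0.0336) fell, Vegfd still passed and Vegfb did not. The kinases have transcripts of 5917 to 6685 bases on average and Vegfb of 1210 bases.

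Ligands and receptors were set against each other as summed TPM per library, without a test. In ECs the 5 ligands summed to 252, 205 and 204 TPM in WT mice and to 135, 137 and 153 TPM in KO mice. The 3 kinases summed to 8.54, 12.2 and 12.1 TPM in WT mice and to 9.83, 7.63 and 10.4 TPM in KO mice. The ligand sum was lower in every KO library and the kinase sums overlapped. Ligand to kinase ratios were 29.5, 16.8 and 16.9 in WT mice and 13.7, 17.9 and 14.8 in KO mice, a difference in mean log2 ratio of -0.40 (SD 0.36). It was 0.11 when Vegfb was left out of the ligands, -0.81 with the co-receptors added to the kinases, -0.26 in CPM and -0.13 without EC WT 1.

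In hearts the ligands summed to 239, 276, 196 and 223 TPM in WT mice and to 324, 334 and 314 TPM in KO mice. The kinases summed to 30.4, 32.7, 25.3 and 25.2 TPM in WT mice and to 31.1, 35.1 and 45.5 TPM in KO mice. Ligand sums were higher in every KO library. The mitochondrial share, which enters the same TPM total, was smaller in every KO library, and its part in the sums was not tested. The ratio, in which that total cancels, was 7.76 to 8.83 in WT mice and 10.4, 9.52 and 6.91 in KO mice, so that heart KO 3 lay below and the other KO libraries above all WT libraries. The difference in mean log2 ratio was 0.10 (SD 0.23), less than its spread. It was -0.22 without Vegfb, 0.24 with the co-receptors added, 0.04 in CPM, -0.02 without heart KO 1, 0.05 without heart KO 2 and 0.28 without heart KO 3.

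**Figure D4:**
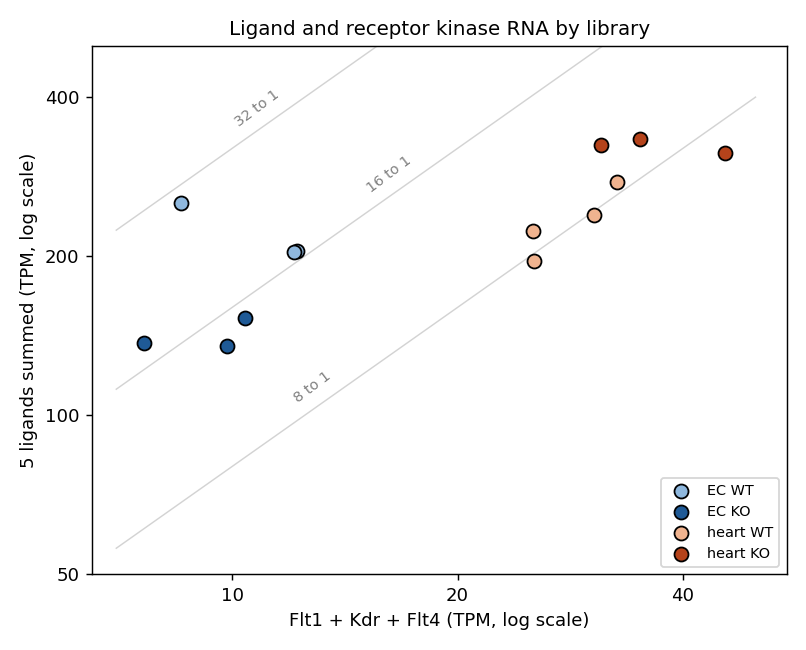
Summed TPM of the 5 ligands against summed TPM of Flt1, Kdr and Flt4 in each library (both axes log). EC libraries lie at 13.7 to 29.5 and heart libraries at 6.91 to 10.4.

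Levels of single ligands were also divided by those of a receptor they bind. Vegfb over Flt1 was 29.2 ± 10.3 in ECs of WT mice and 14.7 ± 2.2 in ECs of KO mice, with ranges of 20.4 to 40.5 and 13.1 to 17.2 that did not overlap. In hearts it was 14.4 ± 1.33 and 17.5 ± 4.11, which overlapped. Vegfa over Kdr was 24.4 ± 7.74 and 24.8 ± 3.04 in ECs and 5.02 ± 0.37 and 4.13 ± 0.683 in hearts, WT first, with overlap in both. Vegfd over Flt4 was 0.28 ± 0.0498 in hearts of WT mice and 0.655 ± 0.144 in hearts of KO mice, ranges that did not overlap (0.229 to 0.344 and 0.531 to 0.812). In ECs it was 2.27 to 5.98 in WT mice and 5.96 to 9.82 in KO mice, which overlapped narrowly. Vegfc over Flt4 was 1.01 to 2.03 in ECs of WT mice and 2.1 to 2.23 in ECs of KO mice, ranges that lay apart, and 0.799 to 1.11 against 1.01 to 1.98 in hearts, with overlap.

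The forms of Vegfa printed above took different shares of its TPM in the 2 tissues. Vegfa-201, the short form, was 18.5% to 23.2% in ECs of WT mice and 1.91% to 8.94% in hearts of WT mice. Vegfa-202 was 24.2% to 30.4% and 40.3% to 49.9%. The heart thus held a smaller share of the freely diffusing form in every library.

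By genotype, Vegfa-207, the form with both optional exons, was 23.7%, 19.7% and 11.3% in ECs of WT mice and 9.58%, 5.49% and 7.26% in ECs of KO mice. The groups did not overlap. Vegfa-202 was 30.2%, 24.2% and 30.4% in ECs of WT mice and 32.5%, 31.9% and 33.7% in ECs of KO mice, again apart. In hearts both forms overlapped between genotypes, at 13.8% to 22.4% against 15.1% to 23.6% for Vegfa-207. Among member transcripts with a mean share of 10% to 90%, 3 of 11 did not overlap in ECs, against 29.0% of all such transcripts, and 3 of 12 in hearts, against 12.4%. The EC transcripts were Pgf-201, Vegfa-202 and Vegfa-207, and the heart transcripts Pgf-201, Pgf-203 and Vegfa-206. Shares of the same gene are not independent, and Pgf had only 10 to 162 estimated counts per heart library. Shares are Kallisto's split of reads between forms that have most of their sequence in common, and no test was made on them.

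The soluble form of Flt1 was 26.1% to 28.5% of Flt1 TPM in ECs of WT mice and 26.6%, 37.6% and 37.5% in ECs of KO mice. EC KO 2 and EC KO 3 were higher, but EC KO 1 lay within the WT range. In hearts it was 20.5% to 36.3% in WT mice and 20.1% to 27.9% in KO mice, with overlap. Pgf-201, the coding form of Pgf, was 81.8% to 86.0% in ECs of WT mice and 91.5% to 92.2% in ECs of KO mice, and 62.9% to 89.5% against 95.3% to 96.2% in hearts. Its groups were apart in both tissues. Pgf-203, an annotated retained intron, was 10.5% to 28.2% in hearts of WT mice and 1.82% to 4.72% in hearts of KO mice.

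**Figure D5:**
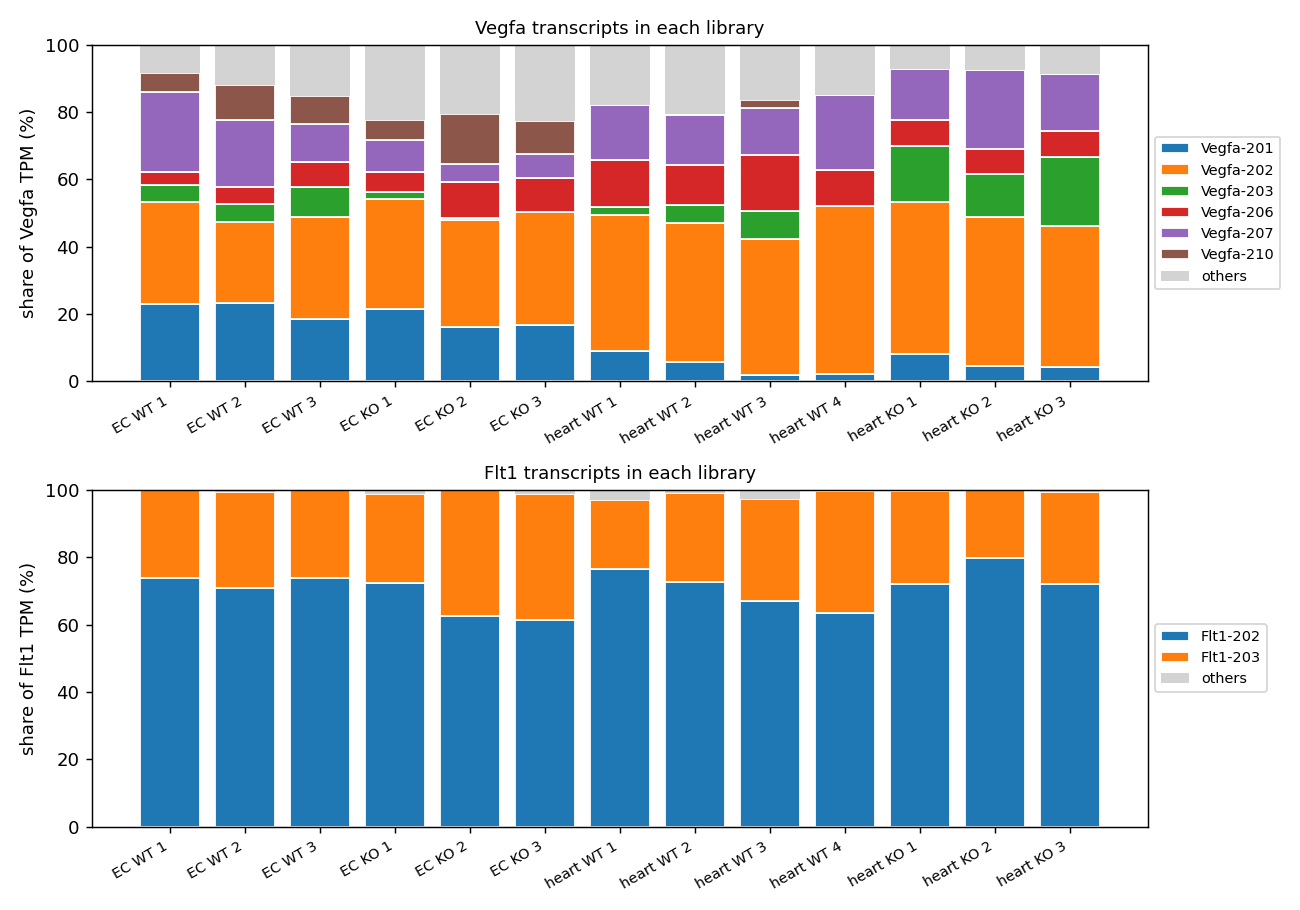
Share of each transcript in the Vegfa (top) and Flt1 (bottom) TPM of every library, as stacked bars to 100%; transcripts with at least 10% in the mean of a group are named, and in the lower panel blue is the full receptor and orange the soluble form. Vegfa-201 is larger and Vegfa-202 smaller in ECs than in hearts, and Vegfa-207 is smaller in EC KO (5.49% to 9.58%) than in EC WT (11.3% to 23.7%).

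Signal transduction downstream of Kdr was covered by 41 genes. In ECs, 4 of them rose and 5 fell in KO mice (22%, all genes 18.1%), with a median log2 fold change of 0.02. Nos3, the endothelial nitric oxide synthase, was 154 ± 27.3 CPM in WT and 292 ± 48.3 CPM in KO mice (a rise of 0.92 on the log2 scale, adjusted p = 0.0183). Nck1, an adaptor that binds phosphorylated Kdr, rose by 0.96, while the kinase Akt2 fell by 0.80. In hearts 4 of 40 rose and 8 fell (30%, all genes 33.4%). Nfatc2, a calcineurin-dependent transcription factor, fell by 1.02, Sos1, an activator of Ras, by 0.65 and the regulatory subunit Pik3r1 by 0.58, and Hras rose by 0.78.

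Of 20 genes known to be induced by VEGF in endothelium, 2 rose and 2 fell in ECs (20%, all genes 18.1%). Esm1, a secreted tip cell proteoglycan, rose from 0.786 ± 0.845 to 7.52 ± 5.25 CPM (log2 fold change 3.23, SE 0.89, adjusted p = 0.0437), and F3, tissue factor, rose by 1.21. Dusp4, a phosphatase of MAP kinases, fell by 2.29 and the homeobox gene Hlx by 1.01. In hearts 1 of 19 rose and 7 fell (42.1%, all genes 33.4%), with a median of -0.53. The nuclear receptors Nr4a1 and Nr4a3 fell by 1.32 and 1.09, Ptgs2, the inducible cyclooxygenase, by 1.27 and the protease Adamts1 by 0.82.

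Among 11 regulators of Vegfa transcription, 3 fell and none rose in ECs (27.3%, all genes 18.1%), and 2 rose and 5 fell in hearts (63.6%, all genes 33.4%). Hif1a, the oxygen-regulated factor that drives Vegfa, fell in hearts from 78.3 ± 9.92 to 43.1 ± 1.54 CPM (log2 fold change -0.86, SE 0.11, adjusted p = 0.000378), where Vegfa did not pass. Sp1 fell by 0.61 there, Hif1an, which blocks HIF transactivation, fell by 0.44 and the prolyl hydroxylase Egln3 rose by 0.46. In ECs the prolyl hydroxylase Egln1 fell by 0.74, the nuclear receptor Esrra by 0.63 and Hif1an by 0.48.

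Partners of the neuropilins and the genes around Flt4 gave the following counts. Of 13 semaphorin, plexin and Gipc1 genes, Plxna1 fell by 1.32 and Plxnd1, the endothelial plexin, rose by 0.80 in ECs (15.4% of the list, all genes 18.1%). In hearts Plxna3 (-1.72), Sema3b (-0.73) and Plxna2 (-0.37) fell and Gipc1 (0.33) rose (30.8%, all genes 33.4%). Of 8 genes of VEGF-C processing and lymphatic identity, 4 rose and none fell in ECs (50%, all genes 18.1%), with a median of 0.72. They were Pdpn (podoplanin, 1.95), Lyve1 (a hyaluronan receptor, 1.29), Nr2f2 (0.92) and Sox18 (0.89). Pdpn and Lyve1 also rose in hearts (1.24 and 0.91), while Adamts3, the protease that activates Vegfc, fell by 1.05 and Prox1, the master regulator of lymphatic endothelium, by 0.81 (5 of 8 passing, 62.5%, all genes 33.4%). Prox1 was under 1 TPM in every EC library. In hearts of WT mice it was 96.6 ± 20 CPM, against 7.79 ± 1.28 CPM for Lyve1 and 1.03 ± 0.141 CPM for Pdpn. Which heart cells carried Prox1 was not tested, so its fall is not assigned to lymphatic endothelium. Lyve1 is also made by macrophages and Pdpn by fibroblasts and mesothelium, and their part in these values was not tested.

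Of 5 macrophage and leukocyte markers, 2 rose and none fell in ECs (40%, all genes 18.1%), with 2 of the 5 below 0. Adgre1 rose by 0.79 and Cd68 by 0.66, and the list summed to 35.8 to 60.2 TPM in WT and 49.3 to 79.2 TPM in KO mice. Of 6 fibroblast markers, 3 rose and none fell there (50%, all genes 18.1%), with 1 below 0. Lum rose by 1.64, Dcn by 1.33 and Pdgfra by 0.92, and the sums were 938 to 1855 and 2183 to 3058 TPM. The mesothelial markers went the other way in ECs, where 2 of 3 fell (Upk3b -5.78 and Msln -4.63, 66.7% of the list, all genes 18.1%). In hearts Cd68 rose by 0.89, as 1 of 5 macrophage and leukocyte markers (20%, below the 33.4% of all genes). The list summed to 13.2 to 16.3 TPM in WT and 19.9 to 27.1 TPM in KO mice. The mesothelial markers Upk3b and Msln rose by 1.31 and 0.88 in hearts (2 of 3, 66.7%, all genes 33.4%). That list summed to 7.46 to 10.2 TPM in WT and 16.7 to 26.3 TPM in KO mice. Of the fibroblast markers 1 rose and 2 fell in hearts (50%, all genes 33.4%), with a median log2 fold change of -0.15. Fibroblast marker sums there were 178 to 217 TPM in WT and 266 to 319 TPM in KO mice. All these heart sums are in TPM, whose total includes the mitochondrial share. That share was smaller in hearts of KO mice, and its part in the marker sums was not tested.

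The related PDGF and angiopoietin systems were counted beside the VEGF family. Of 6 PDGF genes, Pdgfra rose in ECs (0.92, 16.7% of the list, all genes 18.1%). Pdgfrb and Pdgfra fell in hearts (-0.60 and -0.47, 33.3%, all genes 33.4%), so both counts were near the share over all genes. Of 5 angiopoietin and Tie genes, Tie1 (1.01) and Tek (0.74), the endothelial receptors of that system, rose in ECs (40%, all genes 18.1%). Angpt1, the ligand of Tek, fell in hearts (-0.73, 25% of 4 tested, all genes 33.4%). In ECs of KO mice Tie1 and Tek thus rose while Kdr fell.

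Over all 13 libraries the levels of Kdr and Flt1 followed each other closely (Pearson r = 0.995 in log2 CPM), and both followed Vegfb (0.945 and 0.929) and ran against Vegfd (-0.945 and -0.94). These values are dominated by the difference between ECs and heart tissue, which all points share. The genes most like Kdr among 13351 were Tmem63b and Mgrn1 (0.998) and Srl, Pfkm and Ppp6r2 (0.997). Among those most like Flt1 were Limd1 and Kctd9 (0.997) and Tmem63b and Sptb (0.996). Those most like Vegfa were Dpf2 (0.964), Zfp641 and Cpt1b (0.962), Pitpnc1 (0.958) and Anks1 (0.953).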

How the data were processed

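RNA of 13 libraries (oligo-dT selected, strand kept, 100-base paired reads) was analysed. The estimated counts and TPM values deposited per transcript were made by the authors with Kallisto 0.44.0 at default settings, which do not use the strand, 1 library at a time and without normalization between libraries. The methods name GENCODE M32 (GRCm39) as index, and the submitters' processing notes name mm10 and GRCh38.p13. The files do not settle which was used. Of 118489 transcripts, 115140 (97.2%) matched GENCODE M39 by identifier without version; the rest, 0.755% to 1.01% of the counts, were left out. Per gene, estimated counts were added up and rounded, and TPM values added up. Coordinates and sequences are from GENCODE M39. Vegfb overlaps Trpt1 on the other strand and has 3.41% of its 31-base words in other genes too, the other members at most 0.811%.

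Genes kept by filterByExpr (minimum count 10) were TMM-normalized and tested with edgeR's quasi-likelihood test (edgeR 4.0.16, R 4.3.3), Benjamini-Hochberg adjusted over all genes tested, within ECs, within heart tissue, for the tissue by genotype interaction over all 4 groups, and for WT heart against WT ECs. A member passed at an adjusted p of at most 0.05. Intervals are 95% confidence intervals of these fits. Biological variation (edgeR coefficient) was 0.241 for ECs and 0.149 for hearts. Each fit was tested on simulated counts. Alternatives were DESeq2 (1.42.0), upper-quartile normalization, length-scaled TPM counts, mitochondrially encoded genes left out, no filter, all libraries in 1 fit, the replicate number as a block, EC libraries with Ddx3y counts alone, other thresholds, leaving out each library, and, added after the data were seen, an offset for length and GC content (splines, 5 degrees of freedom each). The labels number the libraries without naming mice, so p-values measure the spread between these libraries, part of which may be technical.

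All members were named, with Hmox2, up to 4 passing genes per pathway list and tissue with the largest change, the 5 genes most like Vegfa, Flt1 and Kdr, and transcripts with at least 10% of a gene's TPM in a group mean. Some genes that this rule names are not reported here. Marker genes were named where a result turns on them. Members and lists were chosen with earlier results of these data known. Figures were drawn with matplotlib 3.10.9.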

Additional observations from a re-analysis of the deposited data

Results flagged for a closer look

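Vegfa in hearts of WT mice held 1 library apart from the others: heart WT 3 was at 145 CPM and the other three at 175 to 181 CPM, a gap of 0.851 of the group's range. Of the 10 members tested in this group of 4 libraries, 1 stood apart in this way, and chance does so in about 1 of 20 groups. The genotype effect differed between the tissues for Vegfb, by 1.66 on the log2 scale (heart 0.33, ECs -1.29), and for Kdr, by 0.71 (heart 0.09, ECs -0.58), both by the interaction test given above. Cardiomyocyte marker RNA was lower in the EC libraries of KO mice (8 of 9 markers fell, 88.9%, all genes 18.1%), and its part in either difference was not tested.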

How the results depend on the processing

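In ECs 124 of 150 recomputed member values kept their direction and their side of the threshold, in hearts 131 of 150, for the interaction 192 of 210, and for WT heart against WT ECs 131 of 150. Counts were low for Pgf (10 to 181 per library) and cardiac Vegfd (6 to 94), which limits the precision of their values.

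The number of members passing in ECs (4) was 2 with a log2 fold change of at least 1 also required, and 0 to 4 when single libraries were left out. It was 5 with DESeq2, with length-scaled TPM counts and with no filter, and 6 with all libraries in 1 fit. In hearts (2) it was 1 with all libraries in 1 fit, 1 with the log2 fold change required, 4 with the offset for length and GC content, and 1 to 3 without single libraries. For the interaction (2) it was 5 with DESeq2, 4 with upper-quartile normalization, 4 with the offset, 1 with the fold change required, 6 at an unadjusted p of 0.05, and 2 to 5 without single libraries. For WT heart against WT ECs (6) it was 5 to 7 without single libraries.

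Same-numbered libraries did not all deviate together (correlations of their deviations from the group means 0.181, 0.04 and 0.0872 in ECs and -0.0335, 0.0772 and 0.037 in hearts, and, between hearts and ECs, 0.0978, 0.0114 and 0.0404 in WT and 0.0732, -0.0482 and 0.119 in KO mice). The series calls ECs and hearts matched without saying which libraries share a mouse, so the numbers were not taken to pair samples. With the replicate number as a block, 3 members passed in ECs (Nrp2 no longer did, -0.99, adjusted p = 0.051), 1 in hearts (Vegfb no longer did, 0.34, adjusted p = 0.0545), 2 for the interaction and 5 for WT heart against WT ECs, where Pgf turned to -0.09.

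Other directions turned only in members that did not pass. Pgf turned to 0.04 in ECs, -0.04 in hearts and -0.04 in the interaction with the offset, to -0.03 between tissues with upper-quartile normalization, and, without single libraries, ranged from -0.58 to 0.16 in ECs, -0.23 to 0.42 in hearts and -0.12 to 0.44 between tissues. With the offset Flt4 was 0.24 and Nrp2 0.06 in hearts, and Vegfc 0.01 and Nrp2 -0.01 between tissues. Without single libraries Flt1 ranged from -0.03 to 0.17, Kdr from -0.00 to 0.17 and Flt4 from -0.19 to 0.08 in hearts, and Vegfc from -0.24 to 0.04 between tissues. The log2 ligand to kinase ratio difference in ECs (-0.40) was -0.81 with co-receptors added to the receptors and 0.11 without Vegfb, with -0.54 to -0.13 without single libraries. In hearts (0.10) it was -0.22 without Vegfb and -0.02 to 0.28 without single libraries. The causes were not tested.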

Other observations

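Vegfa-203, a short coding model that carries the 72-base exon without the 132-base exon, was 5.05%, 5.38% and 8.84% of Vegfa TPM in ECs of WT mice and 2.21%, 0.562% and 0% in ECs of KO mice. In hearts it was 2.45%, 5.41%, 8.32% and 0% in WT mice and 16.7%, 12.6% and 20.5% in KO mice. Its genotypes were apart in both tissues and in opposite directions, and the difference between the tissues was not tested. The retained-intron model Vegfa-206 was 10.6% to 16.8% in hearts of WT mice and 7.52% to 7.94% in hearts of KO mice. Nrp2 was split between 4 coding models, and Nrp2-205 was 30.9% to 41.4% in ECs of WT mice, 40.2% to 47.2% in ECs of KO mice and 16.7% to 29.9% in hearts.

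Erythroid markers rose in hearts of KO mice in 3 of 3 genes (Hbb-bs by 2.31 on the log2 scale), where 33.4% of all genes passed. The tissue had been flushed with saline, and the markers summed to 210 to 470 TPM in WT and 1508 to 2232 TPM in KO mice. In ECs they were 2784 to 5647 TPM in WT and 2345 to 5280 TPM in KO mice, and none passed (all genes 18.1%). The smaller mitochondrial share in hearts of KO mice also enters the heart sums, and its part was not tested.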
